A study of Rattus norvegicus with 6 samples.

Results

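Cd4 was examined together with Lck, Ptprc and the border macrophage genes Mrc1, Cd163, Lyve1, F13a1 and Pf4, in hippocampal RNA of 6 rats, all male and of the outbred Sprague Dawley strain. The 8 genes were taken by symbol from a table of 22601 genes. They had been chosen on earlier results of the same comparison of ages: Cd4 was picked by its difference between aged and adult rats, and the other genes as markers of the immune cells that carry or surround it. The values of aged against adult rats for these genes are therefore a description. All 8 passed the filter on low counts that left 14588 genes for testing.

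The 3 adult rats were 4 months old and the 3 aged rats 22 months old, with no treatment and no transgene named in the labels. The series' design text gives the tissue as ventral hippocampus, the sample labels as hippocampus, and the rats had first been tested in a water maze, a spatial memory task. Each library came from 1 animal, and the libraries held between 12476758 and 15689921 read counts, so that 1 count was worth between 0.0626 and 0.0803 CPM (read counts scaled to a common library size after TMM normalization). Values of single libraries are given in the order of replicates 1 to 3, adult before aged. Transcripts of 7 neuronal genes summed to between 5334 and 7666 CPM. Choroid plexus transcripts stood highest in adult replicate 1, where 12 genes summed to 2193 CPM, and elsewhere at 11.4 to 77.5 CPM. The transcripts of 16 liver genes summed to 41.3 and 43.3 CPM in adult and aged replicate 1 and to between 243 and 627 CPM in the other 4. In bulk RNA, fewer cells of a type and less RNA per cell cannot be told apart.

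CD4 is the co-receptor that helper T cells use to bind MHC class II molecules on antigen-presenting cells, and its cytoplasmic tail holds the kinase LCK, which starts signalling from the T cell receptor. CD45, encoded by Ptprc, is a tyrosine phosphatase of the leukocyte surface that acts on LCK. In rats, CD4 is also carried by macrophages and microglia, so its transcript does not mark T cells alone. Border macrophages live in the meninges, the perivascular spaces and the choroid plexus stroma. They are told from the microglia of the parenchyma by the mannose receptor (Mrc1), the haemoglobin-haptoglobin scavenger receptor CD163, the hyaluronan receptor LYVE1, the A chain of coagulation factor XIII (F13a1) and the chemokine CXCL4 (Pf4).

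The start regions of the leukocyte and macrophage genes are shown because 3 of them hold GAGGAA, the core that the myeloid factor PU.1 binds. RefSeq sequences of 250 bases before to 50 bases after the gene start, in the build GRCr8, were matched for 6 of the 8 genes. Cd4 and Pf4 are named only. GAGGAA was searched on both strands, and capitals mark it as GAGGAA or, on the other strand, TTCCTC.
Ptprc promoter, GRCr8 chr13:52259697-52259996, minus strand: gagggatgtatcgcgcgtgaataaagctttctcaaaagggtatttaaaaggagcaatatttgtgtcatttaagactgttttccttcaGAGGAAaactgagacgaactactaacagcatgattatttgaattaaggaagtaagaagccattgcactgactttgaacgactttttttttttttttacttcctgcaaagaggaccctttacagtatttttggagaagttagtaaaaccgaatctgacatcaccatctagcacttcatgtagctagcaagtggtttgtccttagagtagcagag
Mrc1 promoter, GRCr8 chr17:82157475-82157774, plus strand: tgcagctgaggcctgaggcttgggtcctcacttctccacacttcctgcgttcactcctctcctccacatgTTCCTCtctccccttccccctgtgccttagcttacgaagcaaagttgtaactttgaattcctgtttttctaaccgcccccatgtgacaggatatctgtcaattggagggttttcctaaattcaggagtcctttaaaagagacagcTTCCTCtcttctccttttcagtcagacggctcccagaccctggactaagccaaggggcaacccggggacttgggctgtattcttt
F13a1 promoter, GRCr8 chr17:28020947-28021246, plus strand: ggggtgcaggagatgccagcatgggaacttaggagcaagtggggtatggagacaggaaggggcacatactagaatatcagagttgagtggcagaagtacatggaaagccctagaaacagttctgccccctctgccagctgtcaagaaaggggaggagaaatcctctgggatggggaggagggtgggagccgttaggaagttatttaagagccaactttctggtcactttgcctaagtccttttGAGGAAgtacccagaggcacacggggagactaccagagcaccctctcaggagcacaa

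Ptprc and F13a1 each held 1 copy and Mrc1 held 2, while no copy lay in these windows of Lck, Cd163 or Lyve1. Of 33469 promoters of the same length, 9239 (27.6%) held it, so its presence in 3 of 6 genes is a description of the letters and marks no binding site. Spi1, which encodes PU.1 itself, stood at 6.49, 6.51 and 6.73 CPM in adult rats and at 6.06, 12.5 and 5.57 CPM in aged rats.

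Cd4 stood higher in aged rats. It measured 6.56, 6.51 and 4.73 CPM in adult rats and 14.9, 15.3 and 10.3 CPM in aged rats. The lowest aged library lay above the highest adult library, and the groups did not overlap. The means were 5.93 ± 1.04 and 13.5 ± 2.78 CPM (SD, n = 3), a 2.28-fold difference and a log2 fold change of 1.19 ± 0.24 (SE). These values rest on 270 reads in the adult group (exact Poisson 95% interval 239 to 304) and 580 in the aged group (534 to 629), intervals that cover counting error only. In the GRCr8 annotation the protein-coding gene Gpr162 lies close to Cd4, with no overlap listed. Gpr162 had 18901 reads over all libraries. Whether any reads of Gpr162 were counted to Cd4 was not tested. Cd4 was the 1 gene of the 8 whose groups did not overlap. Among all genes tested, 3.13% had every aged library above every adult library, 4.43% had every aged library below, and 7.56% did either.

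None of the 8 genes was called at a Benjamini-Hochberg adjusted p under 0.05 in edgeR's quasi-likelihood test, which called 0 (0%) of the 14588 genes. At an unadjusted p under 0.05 the same test held 503 genes (3.45%), 172 of them (1.18%) higher in aged rats, and Cd4 was 1 of these. DESeq2 called 31 genes, 13 of them higher in aged rats (0.0892% of 14572), and Cd4 was among the 13. Since Cd4 was chosen for this difference, neither count adds to it.

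**Figure D1:**
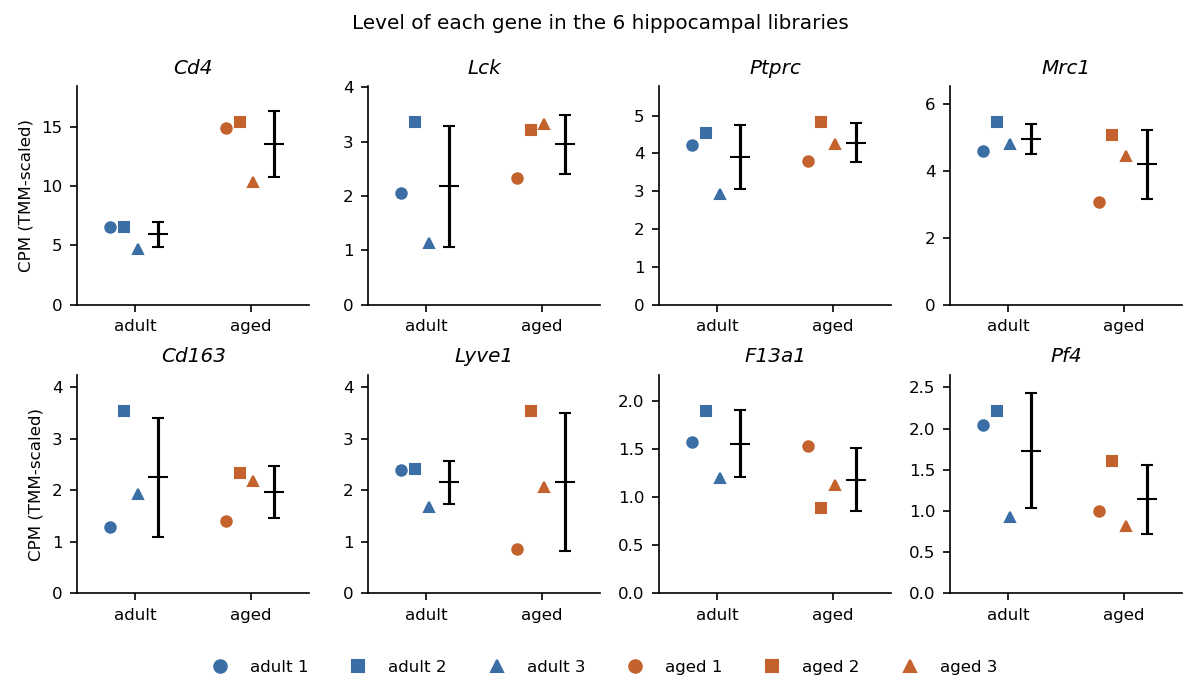
Level of each of the 8 genes in CPM (linear axes from 0, scaled to each gene), with 1 symbol per library, and the mean with SD over 3 rats beside each group. Cd4 stands between 4.73 and 6.56 CPM in adult and between 10.3 and 15.3 CPM in aged libraries, and the groups overlap for the other 7 genes.

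Lck and Ptprc, the signalling partners of CD4, did not separate the ages. Lck measured 2.05, 3.35 and 1.13 CPM in adult rats and 2.33, 3.21 and 3.32 CPM in aged rats. The highest and the lowest value were both in adult rats. The log2 fold change was 0.44 ± 0.43 (SE), and it was 0.89 without adult replicate 2 and 0.14 without adult replicate 3. In the GRCr8 annotation a long noncoding RNA gene, LOC120102985, overlaps Lck on the other strand, and without a known strand setting its reads and those of Lck cannot be told apart. Ptprc measured 4.23, 4.55 and 2.93 CPM in the adult libraries and 3.79, 4.82 and 4.26 CPM in the aged ones. The groups covered nearly the same range, with a log2 fold change of 0.13 ± 0.28, which became -0.03 without adult replicate 3. Adult replicate 3 was the lowest of the 6 libraries for Cd4, Lck and Ptprc alike.

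The scavenger and mannose receptors of border macrophages overlapped between the ages. Mrc1 measured 4.58, 5.44 and 4.80 CPM in the adult libraries and 3.06, 5.06 and 4.44 CPM in the aged ones. Aged replicate 1 was the low library, and the other 2 aged libraries lay near the adult ones, with a log2 fold change of -0.24 ± 0.28 (SE) that became -0.04 without aged replicate 1. The noncoding RNA gene LOC134482611 and the microRNA gene Mir511 overlap Mrc1 in the GRCr8 annotation. Cd163 measured 1.30, 3.54 and 1.93 CPM in the adult libraries and 1.40, 2.33 and 2.19 CPM in the aged ones. Its lowest value at each age was in replicate 1, and its log2 fold change was -0.20 ± 0.45, or 0.28 without adult replicate 2 and 0.02 without aged replicate 1.

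Cd163 is also expressed by the resident macrophages of the liver, and liver transcripts were present. The 2 libraries numbered 1 had the lowest liver sums and the lowest Cd163. Clec4f, a lectin of liver macrophages, had 0 reads in these 2 libraries, which allows up to 0.205 CPM in the adult and 0.200 CPM in the aged one. It had 12 and 14 reads in adult replicates 2 and 3 and 6 and 5 reads in aged replicates 2 and 3. The other liver macrophage genes, named after their values were seen, were mixed. Vsig4 and Marco also had 0 reads in both libraries numbered 1. Cd5l had 0, 12 and 4 reads in adult and 3, 1 and 3 in aged rats. Timd4 had 8, 5 and 16 reads in adult and 2, 0 and 0 in aged rats, with aged replicate 1 the highest aged library. The 5 liver macrophage genes looked up summed to 0.546, 2.65 and 2.53 CPM in the adult libraries and to 0.333, 0.803 and 0.626 CPM in the aged ones, and none of them passed the filter. Albumin (Alb) stood at 16.9, 430 and 396 CPM in the adult libraries and 16.04, 205 and 162 CPM in the aged ones. Adult replicates 2 and 3 had liver sums of 621 and 627 CPM, with Cd163 at 3.54 and 1.93 CPM. Aged replicates 2 and 3 had liver sums of 311 and 243 CPM, with Cd163 at 2.33 and 2.19 CPM. Without both libraries numbered 1, the log2 fold change of Cd163 was -0.26. The part of liver transcripts in the Cd163 values was not tested.

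**Figure D2:**
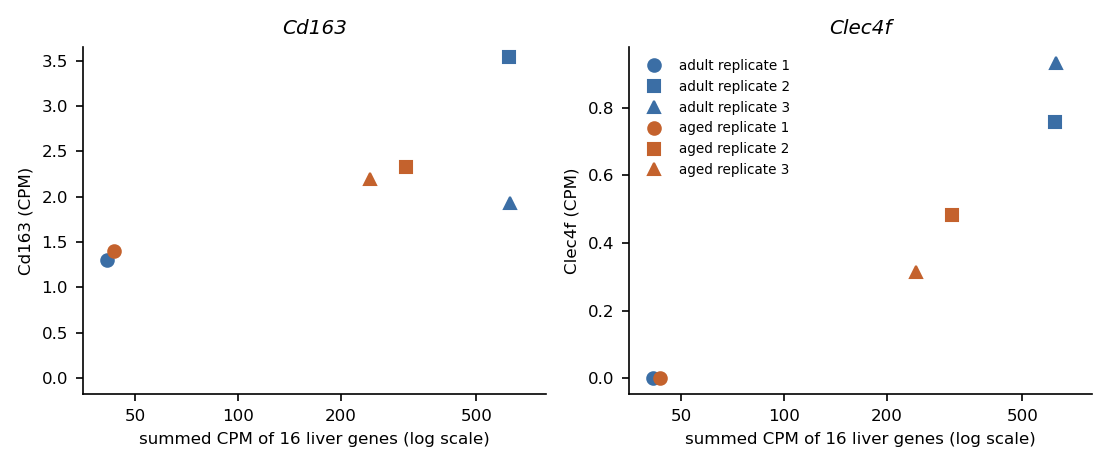
Cd163 and the liver macrophage gene Clec4f (CPM, linear axis) against the summed CPM of 16 liver genes (log axis), 1 symbol per library. The 2 libraries numbered 1 lie at the left at 41.3 and 43.3 CPM of liver genes, with Cd163 at 1.30 and 1.40 CPM and Clec4f at 0.

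Lyve1, F13a1 and Pf4 were the least counted of the border macrophage genes together with Cd163. Lyve1 measured 2.39, 2.40 and 1.67 CPM in the adult libraries and 0.865, 3.53 and 2.07 CPM in the aged ones. Both its lowest and its highest library were aged, and the group means were 2.15 CPM at either age with an SD of 0.422 in adult and 1.34 in aged rats. Lyve1 had a log2 fold change of -0.01 ± 0.50 (SE), which ranged from -0.54 to 0.39 when single libraries were left out. F13a1 measured 1.57, 1.90 and 1.1996 CPM in the adult libraries and 1.53, 0.884 and 1.13 CPM in the aged ones, with overlapping groups. Its log2 fold change was -0.39 ± 0.39, and it was -0.60 without aged replicate 1 and -0.22 without adult replicate 2 or without aged replicate 2. The gene Tpi1l2 overlaps F13a1 in the GRCr8 annotation. Pf4 measured 2.05, 2.21 and 0.933 CPM in the adult libraries and 0.998, 1.61 and 0.814 CPM in the aged ones. Adult replicate 3 lay among the aged libraries, and the log2 fold change was -0.61 ± 0.47, ranging from -0.92 without aged replicate 2 to -0.39 without adult replicate 2.

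**Figure D3:**
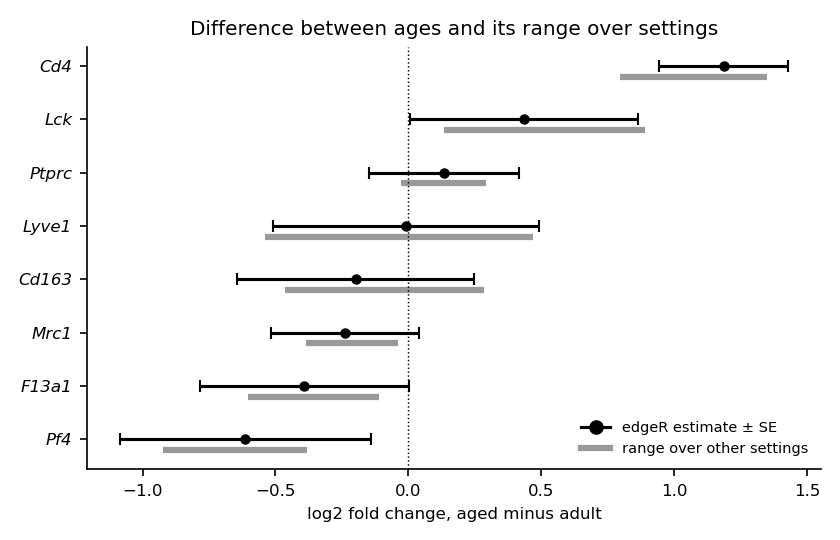
Log2 fold change of each gene, aged minus adult, with the edgeR estimate and its SE (black) and the range over 18 other settings (grey), in which log2(FPKM + 1) shrinks low genes towards 0. Cd4 lies at 1.19 with a range of 0.80 to 1.35, and the estimates of the other 7 genes lie between -0.61 and 0.44.

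The 5 border macrophage genes had log2 fold changes of -0.61 (Pf4) to -0.01 (Lyve1), where Cd4 had 1.19. Over the 8 genes 3 were higher and 5 lower, with a median log2 fold change of -0.10, beside a median of -0.0022 over all genes tested. Adult replicate 2 was the highest of the 6 libraries for 5 genes (Lck, Mrc1, Cd163, F13a1 and Pf4) and aged replicate 2 for the other 3 (Cd4, Ptprc and Lyve1). Adult replicate 3 was the lowest adult library for 6 of the 8.

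The low counts add counting error to the spread. F13a1 had between 11 and 30 reads in a library, for which counting alone gives a coefficient of variation of 20.6% in adult and 24.0% in aged rats, and the coefficients observed were 22.4% and 27.7%. For Cd4 counting alone gives 10.5% and 7.19%, and 17.5% and 20.5% were observed. The observed coefficients, from 3 animals each, were highest for Lyve1 in aged rats (62.0%) and for Cd163 and Lck in adult rats (51.2% for both).

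Per length of transcript, in FPKM, Pf4 was the most abundant of the 8 genes and Cd163 the least. Over all 6 libraries Pf4 averaged 4.51 ± 1.93 FPKM, Cd4 2.22 ± 1.03, Lck 1.13 ± 0.408 and Mrc1 0.872 ± 0.161 FPKM (SD, n = 6). Ptprc averaged 0.778 ± 0.136, Lyve1 0.700 ± 0.290, F13a1 0.394 ± 0.106 and Cd163 0.325 ± 0.128 FPKM. The ranges of every 2 neighbours in this order overlapped over the 6 libraries. Within aged rats Cd4 stood at 3.34, 3.50 and 2.45 FPKM beside Pf4 at 3.08, 5.04 and 2.65 FPKM, while in adult rats Cd4 stood at 1.499, 1.501 and 1.05 FPKM beside Pf4 at 6.44, 7.01 and 2.85 FPKM. Cd4 thus lay below Pf4 in every library other than aged replicate 1.

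Apart from Cd3e in 1 library, genes of the CD3 complex, which carries the T cell receptor's signal, had at most 3 reads in a library. The genes of the 4 CD3 chains (Cd3d, Cd3e, Cd3g and Cd247) together had 1, 7 and 126 reads in adult and 3, 5 and 3 reads in aged rats. All 126 reads in adult replicate 3 were counted to Cd3e, with 0 for the other 3 chains, and in the aged libraries, where Cd4 had between 165 and 224 reads, Cd3e had 2, 3 and 1. Cd2 had 0, 2 and 0 reads in adult and 0, 0 and 1 in aged rats, Cd8a had 0, 2 and 5 and 0, 1 and 1, and Cd8b and Themis had 0 in all libraries, which allows up to 0.241 CPM in the shallowest one. Cxcr3, a chemokine receptor of T cells, had 0 reads in each adult library and 0, 2 and 2 in aged rats.

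Signalling genes that T cells share with other cells were detected. Of 29 T cell genes listed, 28 were in the table and 6 passed the filter, 4 of them higher and 2 lower in aged rats (median log2 fold change 0.19), with 0 called by edgeR's quasi-likelihood test and 1 at an unadjusted p under 0.05. The summed level of the 28 was 18.03 to 26.0 CPM in the adult libraries and 19.0 to 23.7 CPM in the aged ones, and the highest library was adult replicate 3, which held the Cd3e reads. Without Cd3e, a sum added after seeing the data, that library was the lowest, and the ranges were 17.6 to 19.7 CPM in adult and 18.9 to 23.5 CPM in aged rats. The adaptor gene Lcp2 averaged 6.94 and 6.14 CPM and the adaptor gene Lat 1.98 and 2.35 CPM in adult and aged rats. Cd6, a T cell surface receptor named here because it was the 1 gene of the list at an unadjusted p under 0.05, stood at 1.503, 1.64 and 1.53 CPM in the adult libraries and 1.80, 3.61 and 3.19 CPM in the aged ones. The kinase gene Zap70, named after its values were seen, stood at 1.98, 2.47 and 2.87 CPM in the adult libraries and 5.39, 4.02 and 1.44 CPM in the aged ones, so that aged replicate 3 was the lowest library.

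**Figure D4:**
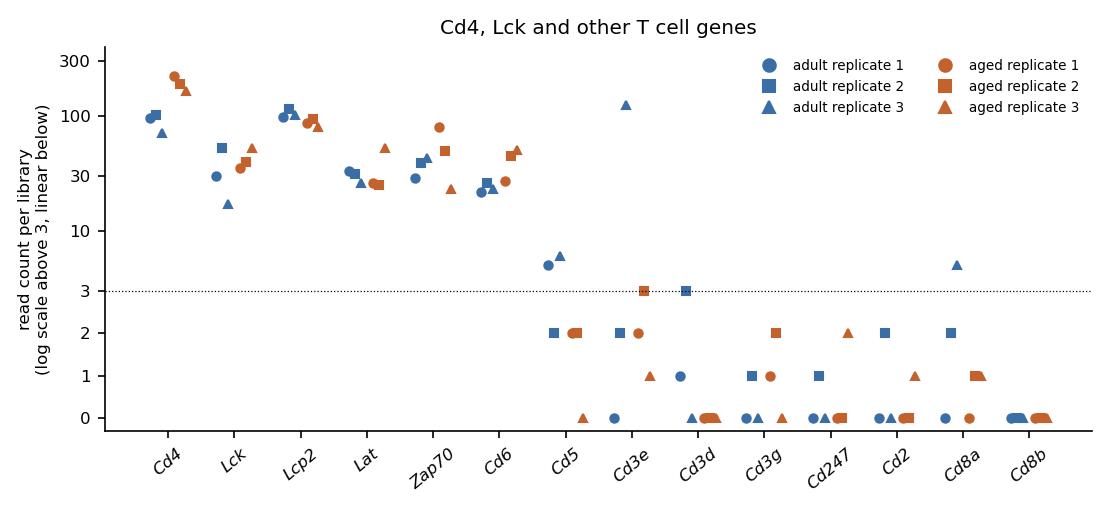
Read counts of Cd4, Lck and 12 other T cell genes, 1 symbol per library, on an axis that is linear up to 3 counts (dotted line) and logarithmic above. Cd4 has 71 to 224 reads in every library, while Cd3d, Cd3g, Cd247 and Cd2 have 0 to 3, and Cd3e reaches 126 only in adult replicate 3.

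Genes around LCK and CD45 were mixed. Of 14 in the list, 12 were tested, 7 higher and 5 lower in aged rats with a median log2 fold change of 0.0021, 0 called by edgeR and 1 at an unadjusted p under 0.05. The Src-family kinase genes Fyn and Src, which neurons also express, averaged 181 and 177 CPM in adult rats, against 162 and 163 CPM at the older age.

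Genes of MHC class II molecules and of their antigen presentation, with Il16, a cytokine that binds CD4, were looked up as 13 genes. Not all of the 13 encode ligands of CD4, and 8 of them were tested. Among these, 7 were higher in aged rats (median log2 fold change 1.22), 0 were called by edgeR's quasi-likelihood test, and 6 had an unadjusted p under 0.05. The protease gene Ctss averaged 172 and 245 CPM in adult and aged rats, Lgmn 110 and 126 CPM, and Il16 33.7 and 30.3 CPM. Cd74, which encodes the invariant chain that escorts MHC class II molecules, stood at 20.8, 13.8 and 12.9 CPM in the adult libraries and 17.2, 49.4 and 62.6 CPM in the aged ones. Cd4 and Cd74 did not order the aged libraries alike: aged replicate 1, with Cd4 at 14.9 CPM, had Cd74 within the adult range, and aged replicate 3, with the highest Cd74, had the lowest Cd4 of the aged libraries.

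Microglia, the macrophages of the brain parenchyma, were looked up by 20 genes, which summed to 537, 506 and 419 CPM in the adult libraries and 510, 699 and 468 CPM in the aged ones. Set against that sum, Cd4 stood at 1.22, 1.29 and 1.13 CPM per 100 CPM of microglial genes in adult and at 2.92, 2.20 and 2.20 in aged rats. The groups again did not overlap, and the aged mean was 2.01 times the adult mean. Among all genes tested, 0.877% had every aged library above every adult one on this scale. Cd4 was chosen for its difference between the ages, and the microglial sums overlapped between them. The ratio therefore restates that difference and adds nothing to it. Of the 20 microglial genes, 17 were higher and 3 lower in aged rats (median log2 fold change 0.21), 0 called by edgeR and 2 at an unadjusted p under 0.05. The complement gene C1qa averaged 75.4 and 88.3 CPM and Csf1r, the receptor on which microglia and macrophages depend, 87.7 and 91.0 CPM in adult and aged rats. The identity genes Tmem119 and P2ry12 averaged 21.4 and 21.6 CPM in adult rats, against 16.9 and 31.6 CPM at the older age. Trem2, a receptor gene of microglia named after its values were seen, was the 1 gene of the list with each aged library above each adult one, beside 3.13% of all genes tested. It stood at 14.3, 9.80 and 7.398 CPM in the adult libraries and 16.7, 21.9 and 14.8 CPM in the aged ones.

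**Figure D5:**
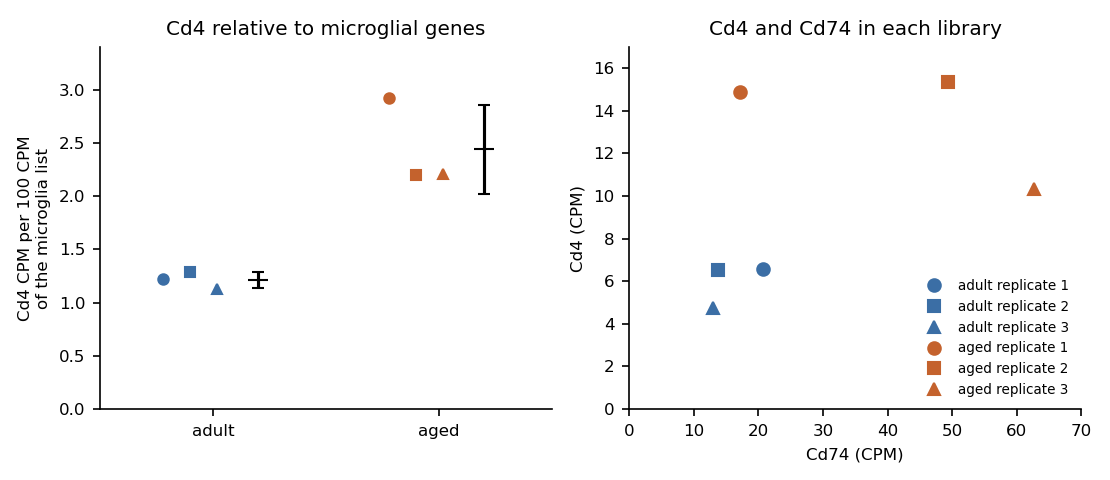
Left, Cd4 CPM per 100 CPM of 20 microglial genes by age, with the mean and SD over 3 rats; right, Cd4 against Cd74 in CPM, 1 symbol per library. Aged libraries lie at 2.20 to 2.92 on the left against 1.13 to 1.29 in adult ones, and on the right aged replicate 1 has high Cd4 with Cd74 at 17.2 CPM.

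Other genes of border macrophages overlapped between the ages among those tested, other than Dab2. Of 18 in the table, 11 were tested, 5 higher and 6 lower in aged rats, with a median log2 fold change of -0.00028, 0 called by edgeR and 1 at an unadjusted p under 0.05. The 18 summed to 217 to 264 CPM in the adult libraries and 226 to 265 CPM in the aged ones, and Gas6, a ligand that other brain cells also make, held 171 and 174 CPM on average. Cd38 averaged 12.5 and 9.02 CPM and the scavenger receptor gene Stab1 8.57 and 6.25 CPM in adult and aged rats. Dab2, an endocytic adaptor gene named after its values were seen, stood at 12.2, 12.7 and 12.8 CPM in the adult libraries and 8.65, 5.38 and 10.6 CPM in the aged ones. Each aged library lay below each adult one, as for 4.43% of all genes tested, and Dab2 was the 1 gene of the list at an unadjusted p under 0.05. Siglec1, the sialoadhesin of tissue macrophages, had between 1 and 14 reads, and the lectin gene Cd209a had 0 in all libraries.

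Genes of haemoglobin scavenging, the pathway that CD163 serves, gave 1 higher and 10 lower of 11 tested in aged rats (median log2 fold change -0.29, 0 called by edgeR, 1 at an unadjusted p under 0.05). The ferritin genes Fth1 and Ftl1 averaged 2941 and 260 CPM in adult rats, against 2702 and 257 CPM at the older age. Haptoglobin (Hp), the ligand of CD163 and a liver product, stood at 8.67, 31.5 and 46.3 CPM in the adult libraries and 4.93, 24.2 and 19.0 CPM in the aged ones, lowest in the same libraries as Alb. Signals that maintain macrophages gave 6 higher and 5 lower of 11 tested (median 0.0012, 0 called by edgeR and 0 at an unadjusted p under 0.05), with the chemokine gene Cxcl12 at 187 and 163 CPM. Il10 had 0 reads in all libraries.

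Markers of other blood and border cells were checked because Pf4 and F13a1 are also made by platelets, Lyve1 by lymphatic endothelium and Ptprc by all leukocytes. Of 12 platelet genes 1 was tested, Itga2b at 3.03 and 3.73 CPM in adult and aged rats, while Ppbp, a chemokine of platelets, had 1 read in adult replicate 1, 1 in aged replicate 3 and 0 in the others. The platelet sum was 3.67 to 5.26 CPM in the adult libraries and 5.19 to 5.63 CPM in the aged ones. Natural killer genes summed to at most 1.53 CPM in a library and B and plasma cell genes to at most 3.82 CPM. Monocyte and neutrophil genes gave 5 higher and 4 lower of 9 tested (median 0.16, 0 called by edgeR and 2 at an unadjusted p under 0.05). Among them Lyz2, which microglia also express, stood at 61.5 and 68.9 CPM and Fn1 at 80.5 and 55.7 CPM. Lymphatic genes gave 2 higher and 6 lower of 8 tested (median -0.25, 0 called by edgeR and 1 at an unadjusted p under 0.05). Their most abundant members, Pdpn, Nr2f2 and Prox1, are also expressed by glia, neurons or other vessels. Stab2, a hyaluronan receptor of sinusoidal endothelium, had 3 to 10 reads.

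Transcripts of the tissues that hold border macrophages differed between libraries as well, and the summed meningeal fibroblast genes stood lower in each aged library than in each adult one. Meningeal fibroblast genes gave 1 higher and 11 lower of 12 tested in aged rats (median log2 fold change -0.47, 0 called by edgeR, 5 at an unadjusted p under 0.05), and summed to 319 to 461 CPM in the adult libraries and 140 to 236 CPM in the aged ones. Col1a2 averaged 9.07 ± 5.43 and 1.67 ± 0.445 CPM (SD, n = 3). All 7 choroid plexus genes tested were lower (0 called by edgeR, 4 at an unadjusted p under 0.05), with Ttr at 2076 CPM in adult replicate 1 and at most 68.0 CPM elsewhere. Without adult replicate 1 the log2 fold change of Ttr was 0.33, against -4.23 with it. In that library Mrc1, Cd163, Lyve1, F13a1 and Pf4 lay within the range of the other 5 libraries or, for Cd163, at 1.30 CPM just below it. The part of these tissues in the values of the 5 genes was not tested, and that of the meninges cannot be told apart from age.

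Likeness was searched over 13115 genes averaging 1 CPM or more. Those whose levels followed Cd4 most closely over the 6 libraries were Cd83, Rhof and Cygb, with Pearson r of 0.99, 0.98 and 0.98 on log2 CPM. This is a description of 6 libraries that differ in age and in tissue content, and 80 genes had r above 0.9. Cd4 was chosen for its difference between the ages, so genes that differ likewise come near it. Cd83, a surface protein of dendritic cells, lymphocytes and microglia, stood at 20.8, 21.3 and 17.4 CPM in the adult libraries and 29.6, 30.4 and 23.8 CPM in the aged ones, with the lowest library of each age the same as for Cd4. None of the 3 genes closest to Cd4 was among the 3 closest to any other of the 8 genes, which says little where 3 are taken from 13115.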

How the data were processed

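RNA from the hippocampus of 6 rats, 3 adult and 3 aged, had been sequenced, 1 library per animal. The authors deposited raw read counts per gene symbol as whole numbers, and FPKM values. Each gene's FPKM equalled its deposited count divided by a fixed length and the library total, within 0.1%, for 100% of 17803 genes. Reads were mapped to Rnor_6.0, per the submitters' processing notes; aligner, counting program, annotation and strand setting: not given in the sources used here. Columns were matched to samples by title. The table holds 27 symbols turned into dates, kept as they stand.

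Aged was compared with adult with edgeR 4.0.16 in R 4.3.3 (filterByExpr, TMM, quasi-likelihood F test, two-sided, Benjamini-Hochberg over 14588 genes, age as the only term), called at an adjusted p under 0.05. The SE of a log2 fold change was derived from the F statistic. CPM are TMM-scaled, and 3 counts were taken as the limit that a count of 0 allows. The p-values set the difference between the ages against the spread of animals within an age, an estimate that also draws on the other genes.

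The 8 genes and all lists were chosen with earlier results of these data known. Named were the 8 genes, the 2 genes with the highest mean FPKM of each list described and a fixed set of cell markers, of which a few are not reported here. Of the neuron, muscle and red blood cell lists no gene is named. Groups that did not overlap were not particular to Trem2 and Dab2. Among other listed genes tested, Ctss, Cd6, Ptpn22, S100a9 and Cd83 also had every aged library above every adult one, beside 3.13% of all genes tested. Hmox1, Slc48a1, Yes1, Fn1, Tie1 and Ttpa had every aged library below, beside 4.43% of all genes tested. So did 7 genes of the meningeal fibroblast list and 2 each of the choroid plexus, muscle and red blood cell lists. The muscle list had 10 of 10 tested genes lower in aged rats and the red blood cell list 5 of 5, with 0 called by edgeR and 3 and 2 at an unadjusted p under 0.05. The liver parenchyma list had 16 of 16 lower and the dendritic cell list 2 of 3 higher, with 0 called by edgeR and 1 each at an unadjusted p under 0.05. The neuron list had 6 of 7 higher and the B cell list 0 of 1, with 0 called and 0 at an unadjusted p under 0.05.

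Alternatives were scaling by library size, RLE or upper quartile, other filters, DESeq2 1.42.0, limma-voom (limma 3.58.1), limma on log2(FPKM + 1) and log2(FPKM + 0.1), a block for replicate number, omission of each library and, added after seeing the data, leaving out both libraries numbered 1. The scripts were tested on simulated counts. Gene neighbours and promoters came from RefSeq tables of GRCr8, a build other than that of the reads, used for names and sequence only. Figures were drawn with matplotlib 3.10.9.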

Additional observations from a re-analysis of the deposited data

How the results depend on the processing

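The direction of Cd4, Lck, Mrc1, F13a1 and Pf4 was the same in all 18 other settings run. Cd4 had an unadjusted p under 0.05 in every setting, with log2 fold changes of 0.80, on log2(FPKM + 1), to 1.35. Every setting used the same libraries or some of them, and Cd4 was chosen for this difference. The settings therefore show its dependence on processing only and add no support to it. DESeq2 called 31 genes where edgeR called 0, including 1 of the 8 genes (Cd4) and 2 listed genes, Col1a2 and Igf2. When single libraries were left out, edgeR called between 0 and 1 genes, none of them among the 8. The labels name no pairing of libraries with the same number. Over the genes tested, the deviations of such libraries from the means of their ages correlated at -0.02, -0.06 and 0.09. From so few libraries these values cannot tell whether equal numbers share a step of handling. The liver sums were lowest in both libraries numbered 1. With the replicate number as a block, edgeR called 0 genes, 0 of the 8 and 0 of the listed genes, and 468 genes had an unadjusted p under 0.05.

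Leaving out single libraries gave log2 fold changes of -0.027 to 0.26 for Ptprc, -0.46 to 0.28 for Cd163 and -0.54 to 0.39 for Lyve1. The same gave -0.35 to 0.17 for Il16, -4.93 to 0.33 for Ttr, -0.11 to 0.24 for Csf1r, -0.086 to 0.45 for Lat, -0.066 to 0.11 for Gas6 and -0.24 to 0.030 for Fth1. It gave -0.23 to 0.10 for Ftl1, -0.055 to 0.35 for Lyz2, -0.14 to 0.077 for Flt3, -0.22 to 0.085 for Pdpn and -0.17 to 0.83 for Dcn. Scaling by library size gave 0.0089 for Lyve1. Without both libraries numbered 1 Lyve1 stood at 0.47, Ttr at 0.86, Ftl1 at 0.044 and Cd22 at 0.16. Relative to the microglial sum, the log2 ratio of means was -0.028 for Ptprc and -0.24 for Lyve1. The cause of these changes of sign was not tested. The 7 genes other than Cd4 had 11 to 86 reads in a library, which with 3 animals an age limits the precision of their values.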
